A study of Homo sapiens with 16 samples.

Results

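The comparison described here is of SH-SY5Y cells differentiated on P(rGO) films against the same cells differentiated on culture plates. SH-SY5Y is a line of human neuroblastoma cells of the sympathetic lineage, and P(rGO) is an electrically conductive film of a polymer with reduced graphene oxide. Its members were chosen by label: the 2 libraries of unstimulated P(rGO) films and the 2 libraries of differentiated plates, 4 of the 16 libraries of the series. Every gene of the count table entered, and 18081 of the 69222 genes listed had enough reads to be tested. Both groups went through one differentiation scheme, with serum lowered to 5%, 2.5% and 1% on days 2, 3 and 5, 10 µM retinoic acid from day 3 to day 6, and 50 ng/mL BDNF for the next 4 days. Neither group was electrically stimulated. Per the labels, films were first coated with laminin and poly-L-lysine, while no coat is given for plates, so the film, its coat and any other difference between film and plate cannot be told apart. The remaining groups included untreated cells on plates, and films of ITO (indium tin oxide) or PEDOT:PSS (a conducting polymer blend) under the same scheme. The others were the 3 films with electrical stimulation, a 1 Hz square wave of 0.1 V for 8 h per day over 4 days. Each of these groups had 2 libraries.

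Retinoic acid and BDNF are used with SH-SY5Y to slow division and draw out neurites. BDNF acts through the receptor TrkB and the kinase ERK, whose activity induces immediate early genes such as the EGR family within a short time and then the Sprouty and DUSP proteins that damp the pathway. A culture surface acts on cells mainly through integrins, the receptors for matrix proteins such as laminin, and through the actin cytoskeleton to which integrins are coupled.

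The 4 libraries held from 17146033 to 19756694 reads assigned to genes, within the range of 15600410 to 20851000 over the series. Levels are given as CPM, a library's counts scaled to a common total (counts per 1e6) after correction between libraries, always in the order replicate 1, replicate 2. The 2 plate libraries differed from each other more than the 2 film libraries: their biological coefficient of variation was 18.1%, against 9.1% on the film, and 208 of 11474 genes with at least 5 CPM differed over 2-fold between the plate libraries (1.81%), against 10 between the film libraries (0.0872%). Plate replicate 1 had the larger share of mitochondrially encoded reads, 8.58% against 5.42% in plate replicate 2 and 6.17% and 5.07% on the film. The share of ribosomal protein reads was 5.80% and 4.32% on plates and 3.28% and 2.97% on the film. Nothing in the labels says that the replicates came from separate cultures, so each p-value measures only a spread between libraries. That spread was estimated from all 16 libraries together, whose groups had coefficients from 6.88% (stimulated PEDOT:PSS) to 36.2% (untreated cells). The sympathoadrenal markers that define this lineage summed to 7907 and 8289 CPM on plates and to 8149 and 8267 CPM on the film. The sums do not show single markers: of 14 tested, 1 was called higher (GAP43) and 1 lower (DBH). Of 9 endothelial markers 4 were tested, of 12 glial markers 5 and of 9 leukocyte markers 1, and none was called. The tested endothelial markers summed to 24.2 and 32.2 CPM on plates and 36.8 and 29.3 CPM on the film, the glial ones to 14.2 and 13.7 and 16.2 and 15.2 CPM, and the leukocyte one was at 1.25 and 2.30 and 1.43 and 1.16 CPM. Untested markers of these 3 lists had at most 7 reads in a library, and among them the endothelial PECAM1, CDH5 and TIE1, the glial SOX10, FOXD3 and GFAP and the leukocyte CD68, TYROBP and CD3E had 0. Some genes that every cell uses are listed at or near 0 over all 16 libraries, with 7 reads for the tubulin gene TUBB and 0 for PSMB3, a proteasome subunit. A listing at 0 therefore does not show that a gene was silent, and CHGA (chromogranin A), at 0 reads, is not described.

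Of the 18081 genes tested, 838 (4.63%) differed between the film and plates at an adjusted p of at most 0.05, in edgeR's quasi-likelihood test with Benjamini-Hochberg adjustment: 541 were higher on the film (2.99%) and 297 lower (1.64%). The median log2 fold change, film minus plates, over all genes tested was -0.02, and the median standard error was 0.26. Both film libraries lay outside the range of both plate libraries for every one of the 838 genes, but so they did for 26.9% of all genes tested in the higher and 27.6% in the lower direction. The change was over 2-fold for 462 of the 838 and over 4-fold for 164, and 764 were protein-coding genes. In bulk RNA of this kind, fewer cells of a type and less RNA per cell cannot be told apart.

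**Figure D1:**
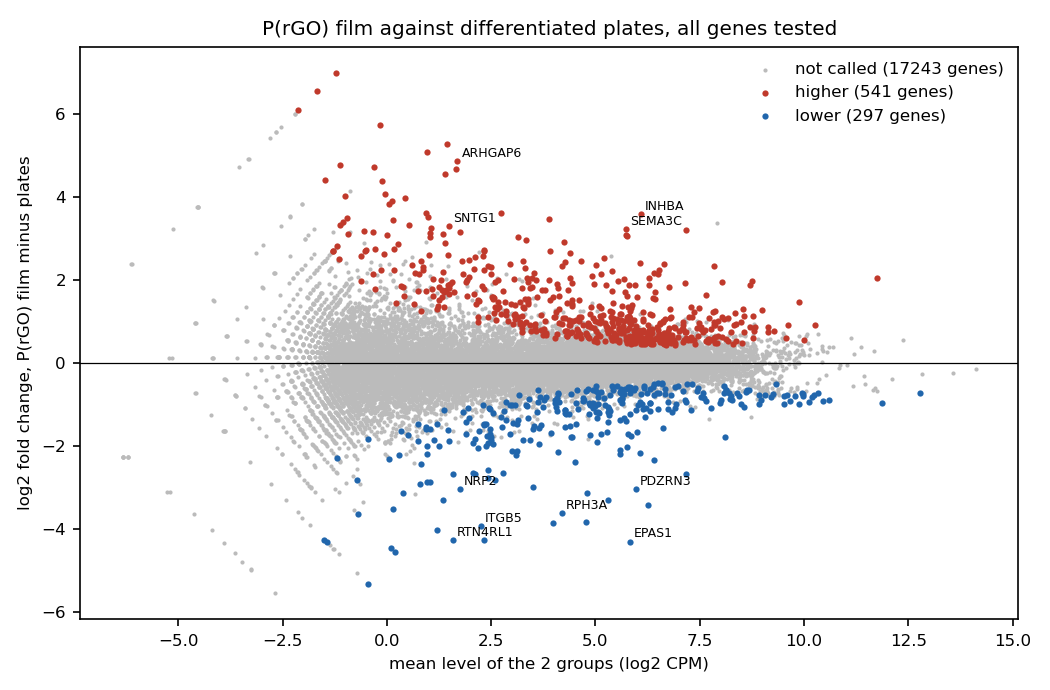
Log2 fold change of each gene tested (P(rGO) film minus differentiated plates, vertical axis) against its mean level over both groups (log2 CPM, horizontal axis). The 541 genes called higher are red, the 297 called lower blue and the 17243 not called grey, 6 tested genes with no read in these 4 libraries are not drawn, and a few of the largest changes carry their symbol.

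How many genes were called turned on single libraries. With plate replicate 1 left out, 100 of the 838 genes kept their call (59 higher and 41 lower), and with plate replicate 2 left out, 612 did (389 and 223). Leaving out film replicate 1 or 2 kept 170 and 187. In these fits 0.311% of all genes tested were called higher and 0.216% lower without plate replicate 1, and 3.01% and 2.38% without plate replicate 2. The shares were 0.668% and 0.232% without film replicate 1, and 0.737% and 0.263% without film replicate 2. Each of these fits leaves 1 group with a lone library, which is assumed to vary like the other groups. In every one of the 4 fits, 82 genes remained called, 55 of them higher and 27 lower, and 211 of the 838 remained called in none. In the accounts that follow, a gene is said to hold when its call survived all 4 fits. Counts of called genes in a list are to be read beside the shares over all genes, 2.99% higher and 1.64% lower.

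**Figure D2:**
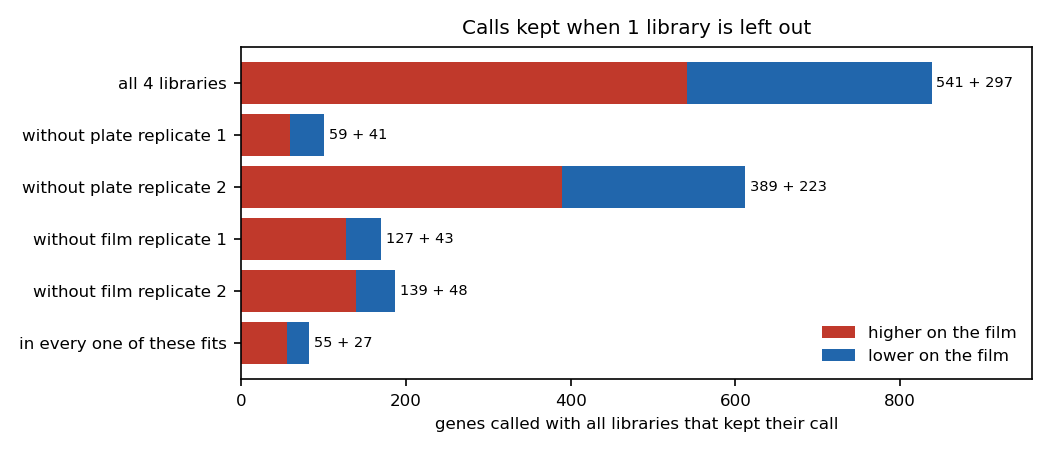
Number of the 838 called genes (horizontal axis) that kept their call in fits without 1 library, higher on the film in red and lower in blue. The bar without plate replicate 1 is the shortest of the 4 single-library bars, at 59 higher and 41 lower, and the last bar counts the 55 and 27 genes that kept their call in every fit.

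With a minimum of 5 CPM in either group, the 12 largest rises on the film included ARHGAP6, EGR3, IL13RA2, HS6ST3, INHBA, LUM, SNTG1, SEMA3C, EGR1, GPNMB and SGK1, with log2 fold changes from 4.86 for ARHGAP6 to 3.10 for SGK1. The 12 largest falls were EPAS1, RTN4RL1, KIT, ITGB5, FLRT1, SMOC1, RPH3A, SPOCK1, TXNIP, SULF2, NRP2 and PDZRN3, from -4.30 for EPAS1 to -3.04 for PDZRN3. ARHGAP6, a GTPase-activating protein that acts on RhoA, was at 0.217 and 0.200 CPM on plates and 7.10 and 5.38 CPM on the film, and at 6.80 and 6.60 CPM in untreated cells. Film and untreated cells thus had like levels of ARHGAP6, and the differentiated plates stood below both, with a log2 fold change of 4.86 ± 0.51 (SE) against the film (adjusted p = 0.000281). Its plate value rests on 4 reads in each library. SNTG1, a syntrophin of neurons, rose from 0.163 and 0.849 to 5.04 and 5.21 CPM and held.

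SMOC1, a secreted calcium-binding matrix protein that modulates BMP signals, was at 41.9 and 59.6 CPM on plates and 3.38 and 3.76 CPM on the film (-3.83 ± 0.55, adjusted p = 0.00182). Untreated cells had 0.887 and 1.51 CPM, so SMOC1 was higher on differentiated plates than in the film or the untreated libraries, and its call held. TXNIP, the inhibitor of thioredoxin that also limits glucose uptake, was at 96.2 and 47.8 CPM on plates and 7.44 and 7.23 CPM on the film (-3.29 ± 0.49, adjusted p = 0.00239), and at 193 and 621 CPM in untreated cells. Both film libraries of TXNIP lay below both plate libraries and both untreated libraries, and its call held. EPAS1, the hypoxia-inducible factor HIF-2α, was at 140.3 and 76.0 CPM on plates and 4.12 and 6.83 CPM on the film (-4.30 ± 0.64), and RPH3A, a Rab3 effector of vesicle release, at 44.0 and 23.7 and 3.38 and 2.14 CPM (-3.61 ± 0.42). Both genes held, and in both, plate replicate 1 was the higher plate library. SULF2, which removes sulfate from heparan sulfate chains, fell from 68.2 and 31.4 to 6.13 and 5.27 CPM, and HS6ST3, which adds sulfate to them, rose from 0.489 and 1.498 to 13.2 and 11.4 CPM. Neither held: without plate replicate 1 the adjusted p was 0.0847 for SULF2 and 0.0738 for HS6ST3.

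**Figure D3:**
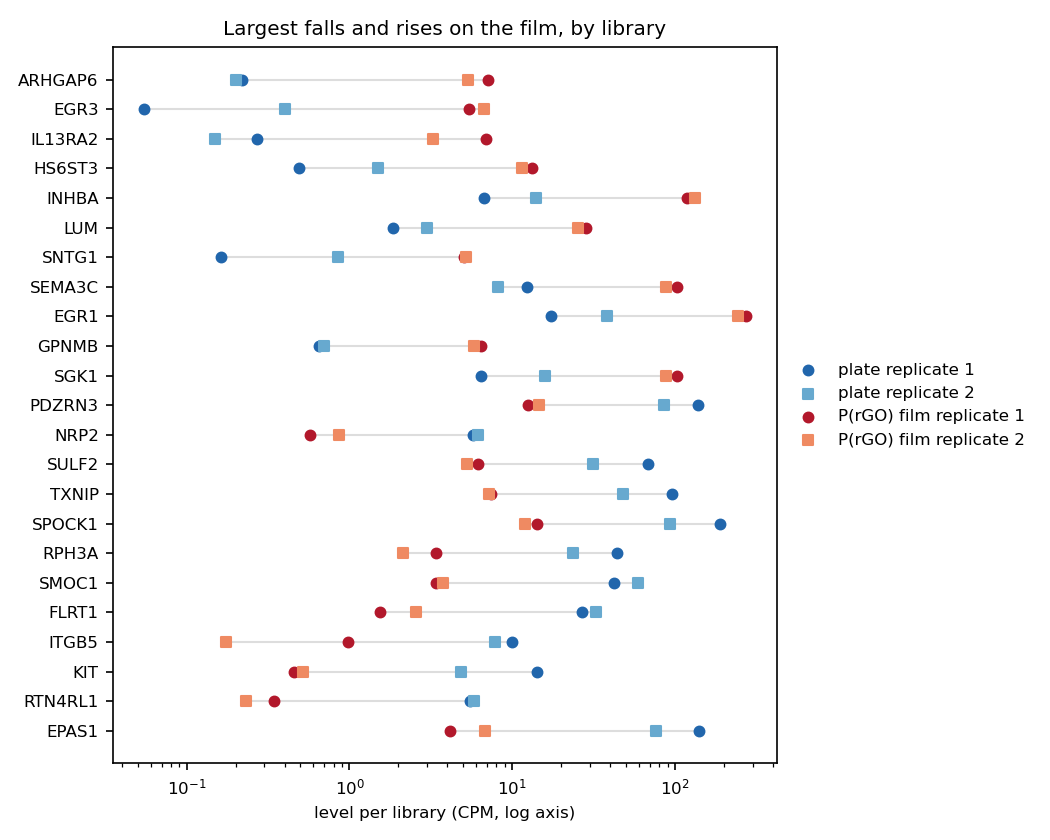
Level in each of the 4 libraries (CPM, log axis) of genes among the 12 largest rises and of the 12 with the largest falls on the film; blue symbols are plate libraries, red and orange symbols film libraries, circles replicate 1 and squares replicate 2. In every row both film libraries lie on one side of both plate libraries, as the choice of genes required.

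The smallest p-value of all belonged to RADIL, an effector of the GTPase Rap in cell adhesion, which was singled out after its values were seen. RADIL was at 93.1 and 99.7 CPM on plates and 31.7 and 28.9 CPM on the film (log2 fold change -1.67 ± 0.13, adjusted p = 4.80e-05). Untreated cells had 71.3 and 75.1 CPM, between the plates and the film. PLS3 (plastin 3, an actin-bundling protein), chosen in the same way, was at 9.83 and 13.2 CPM on plates and 54.6 and 44.2 CPM on the film (2.10 ± 0.20, adjusted p = 0.000244), and OSBPL3, a lipid-transfer protein, at 28.6 and 38.0 and 127 and 119 CPM (1.88 ± 0.20). All 3 held.

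Immediate early genes, many of them transcription factors, are switched on within minutes of a signal. On the film 8 of the 21 tested members of a list of 28 were called higher, and none lower. The median log2 fold change of the 21 was 0.89, beside -0.02 over all genes. The EGR genes carry binding sites of the serum response factor, called CArG boxes, just before their starts. Within 250 bases before the RefSeq start a CArG box was found, on either strand, for 2 of the 5 called members with an entry (EGR1 and EGR2) and 3 of the 15 tested members with one, against 1.44% of 27305 genes. The stretches before both EGR genes, from RefSeq on GRCh38.p14, are shown because EGR1 and EGR2 rose together; capitals mark each CArG box. They are chr5:138465371-138465430 (plus strand) for EGR1 and chr10:62816403-62816462 (minus strand) for EGR2, with the box nearest the start 83 and 71 bases before it.
EGR1: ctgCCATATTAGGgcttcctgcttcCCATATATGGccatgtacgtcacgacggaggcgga
EGR2: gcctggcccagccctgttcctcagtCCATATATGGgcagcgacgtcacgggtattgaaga
A match describes these letters and does not show that a factor was bound.

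EGR1, on chromosome 5 from 138465490 to 138469315, was at 17.4 and 38.4 CPM on plates and 274 and 242 CPM on the film (3.21 ± 0.55, adjusted p = 0.00518). Both film libraries were above both plate libraries, which differed over 2-fold from each other, and untreated cells were at 7.34 and 21.8 CPM. EGR2 was at 0.109 and 0.400 and 2.92 and 2.37 CPM (3.32 ± 0.62, adjusted p = 0.00805), with 2 and 8 reads on plates, and EGR3 at 0.0543 and 0.400 and 5.44 and 6.71 CPM, with 1 and 8 reads on plates. Among AP-1 subunits JUNB rose from 27.2 and 57.4 to 119 and 131 CPM (1.56 ± 0.29, adjusted p = 0.00752) and FOSL2 from 6.57 and 4.59 to 14.5 and 16.2 CPM (1.46 ± 0.26, adjusted p = 0.00594). FOS itself, at 1.47 and 3.79 CPM on plates and 11.9 and 11.8 CPM on the film, missed the threshold (adjusted p = 0.0524), and JUN had the other sign, with 83.2 and 69.7 and 54.6 and 48.6 CPM (-0.57 ± 0.39, adjusted p = 0.473). KLF10, a zinc-finger repressor induced by TGF-beta, rose from 40.4 and 47.2 to 78.3 and 84.0 CPM, ARC, a synaptic protein of neurons, from 5.32 and 4.59 to 19.1 and 15.9 CPM, and IER5 from 33.7 and 46.3 to 72.8 and 79.8 CPM. Of the 8 called members EGR3 alone held. When plate replicate 1 was left out, 2 kept their call (EGR3, and FOSL2 at an adjusted p of 0.0327), without plate replicate 2, 7 did, and without film replicates 1 and 2, 5 and 4 did. In the fit without plate replicate 1 the log2 fold change of EGR1 was 2.75 (adjusted p = 0.102) and that of JUNB 1.12 (adjusted p = 0.0851).

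Of 16 tested genes (of 18) that ERK signalling induces to limit itself, 5 were higher on the film and 1 lower, with a median of 0.18. SPRY2, a Sprouty protein that blocks signalling from growth factor receptors to ERK, was at 23.8 and 23.6 CPM on plates and 84.2 and 90.8 CPM on the film (1.89 ± 0.22, adjusted p = 0.000481). The plate libraries were almost equal, the film libraries were both above them, and the call held. SPRY1 was at 14.2 and 47.6 and 118 and 159 CPM (2.16 ± 0.38), with the plate libraries over 3-fold apart, and SPRY4 at 70.1 and 113 and 162 and 203 CPM (0.99 ± 0.22). DUSP5, a nuclear phosphatase of ERK, rose from 3.64 and 5.14 to 37.5 and 29.1 CPM and held, and DUSP6, its cytoplasmic relative, from 179.5 and 231 to 315 and 325 CPM (0.64 ± 0.17, adjusted p = 0.0453). DUSP4 differed little (-0.05 ± 0.29), as did the ERK-responsive factors ETV4 (0.11 ± 0.15) and ETV5 (0.16 ± 0.14). PHLDA1 went the other way, at 17.1 and 22.8 CPM on plates and 4.58 and 5.79 CPM on the film (-1.94 ± 0.31, adjusted p = 0.00339). DUSP5, SPRY1, SPRY2 and PHLDA1 kept their calls without plate replicate 1 and SPRY4 (adjusted p = 0.250) and DUSP6 (0.397) did not. Without either film library 3 of the 6 were kept.

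Other genes that signals induce were also called. SGK1, a kinase that serum, glucocorticoids and osmotic stress induce, was at 6.41 and 15.8 CPM on plates and 103 and 87.9 CPM on the film (3.10 ± 0.35, adjusted p = 0.000431), above the 19.5 and 19.2 CPM of untreated cells, and it held. It was 1 of 12 tested members of a list of serum and glucocorticoid induced genes to be called higher. The 1 called lower was the glucocorticoid receptor itself, NR3C1, at 14.6 and 11.1 CPM on plates and 5.27 and 4.05 CPM on the film (-1.46 ± 0.30, adjusted p = 0.0148, and 0.163 without plate replicate 1). INHBA, the βA subunit of activin, was at 6.73 and 14.03 CPM on plates, 119 and 132 CPM on the film and 5.15 and 3.45 CPM in untreated cells (3.59 ± 0.42, adjusted p = 0.000509). INHBA held, and it was 1 of the 2 called higher among 26 tested genes of TGF-beta, activin and BMP signalling. The type I BMP receptor BMPR1B was the 1 called lower, at 56.3 and 49.7 and 24.6 and 26.0 CPM (adjusted p = 0.0213, and 0.189 without plate replicate 1). TGFB1 was at 9.28 and 29.5 CPM on plates and 47.2 and 44.7 CPM on the film and missed the threshold (adjusted p = 0.116).

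Genes of cholesterol synthesis and uptake, which the factor SREBP2 drives together, were called higher on the film for 13 of 25 tested members (of 27) and lower for none. Each of the 25 had a positive log2 fold change and film libraries above both plate libraries, with a median of 0.88. Over all genes tested, 48.0% had a positive log2 fold change, 26.9% had both film libraries above both plate libraries and 2.99% were called higher. The median ratio was 1.03 against plate replicate 1 and 0.69 against plate replicate 2, both on the log2 scale. Promoters of these genes often carry a CCAAT box, bound by NF-Y, beside the sites of SREBP2. CCAAT was found on either strand in the 250 bases before the start of 8 of the 8 called members with an entry and of 17 of the 19 tested members with one, against 37.0% of 27305 genes. The SREBP site TCACNCCAC was found for 0 of the 8 and for 1.09% of all genes, and its shorter form CACNCCAC, which the longer one contains, for 2 of the 8 and for 5.89%. Stretches before 4 called enzymes, from RefSeq on GRCh38.p14, are shown around the CCAAT box nearest the start (capitals, read as ATTGG where it lies on the opposite strand), because these genes rose together. They are chr11:121292690-121292744 (plus strand) for SC5D, chr5:43313483-43313537 (minus strand) for HMGCS1, chr10:1048944-1048998 (minus strand) for IDI1 and chrX:152830954-152831008 (plus strand) for NSDHL.
SC5D: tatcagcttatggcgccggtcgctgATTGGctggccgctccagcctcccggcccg
HMGCS1: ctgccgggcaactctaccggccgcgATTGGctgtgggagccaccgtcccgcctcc
IDI1: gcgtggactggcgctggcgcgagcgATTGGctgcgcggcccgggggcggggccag
NSDHL: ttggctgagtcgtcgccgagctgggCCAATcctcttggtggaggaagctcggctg
The box lies 56, 100, 87 and 84 bases before the start, in that order.

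The pathway is described from its first steps to its last. ACAT2, which joins 2 acetyl units, was at 87.7 and 104 CPM on plates and 203 and 209 CPM on the film (1.10 ± 0.20, adjusted p = 0.00739), and HMGCS1 at 179 and 211 and 447 and 455 CPM. In the mevalonate steps MVK rose from 33.1 and 46.5 to 71.2 and 72.1 CPM and IDI1 from 67.5 and 84.0 to 115 and 136 CPM, with both film libraries above both plate libraries in each. SQLE, which makes squalene epoxide, rose from 126 and 157 to 229 and 250.3 CPM (0.76 ± 0.16). Among late steps NSDHL rose from 28.8 and 35.5 to 68.5 and 63.4 CPM and DHCR7 from 119 and 190.2 to 314 and 298 CPM. STARD4, a sterol carrier, rose from 217 and 331 to 523 and 682 CPM. INSIG1, a sterol sensor (0.98 ± 0.36, adjusted p = 0.137), was not called, and SREBF2, which encodes SREBP2 itself, differed by 0.28 ± 0.24. The efflux pumps ABCA1 (-1.28 ± 0.38, adjusted p = 0.0737) and ABCG1 (-0.85 ± 0.37, adjusted p = 0.223) had negative values and were not called either, while the list of sterol efflux genes to which they belong had positive values for 6 of 9 members and a median of 0.28. Of the 13 calls, 11 were kept without plate replicate 2, and 3 and 2 without film replicates 1 and 2. Without plate replicate 1 the median of the 25 was 0.70 and no member kept its call, with adjusted p = 0.0563 for SC5D and 0.0741 for HMGCS1. Of 12 genes of fatty acid synthesis, ACSS2 (1.15 ± 0.20) and ACSL3 (0.55 ± 0.13) were called higher and none lower, and neither kept its call without plate replicate 1.

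NRF2, the factor that answers oxidants, is linked to the 27 genes of the next list, all of them tested. On the film 8 were called higher and none lower, with a median of 0.69. The median was 0.47 without film replicate 1 and 0.75 without film replicate 2. Summed over the list, levels were 2549 and 2629 CPM on plates and 3810 and 3160 CPM on the film. Untreated cells were at 3374 and 3241 CPM, within the range of the film. The thioredoxin pair rose by a similar amount: TXN was at 49.1 and 45.9 CPM on plates and 86.3 and 78.7 CPM on the film (0.80 ± 0.16, adjusted p = 0.0109), and its reductase TXNRD1 at 181 and 180.0 and 345 and 304 CPM (0.85 ± 0.17, adjusted p = 0.0138). ME1, a malic enzyme that supplies NADPH, rose from 23.2 and 27.1 to 54.3 and 44.7 CPM. SLC7A11, the cystine carrier, was at 1.36 and 1.45 CPM on plates and 9.62 and 7.18 CPM on the film (2.58 ± 0.66, adjusted p = 0.0403), and OSGIN1 at 0.923 and 1.45 and 7.10 and 6.25 CPM. NQO1 was at 6.57 and 9.79 and 40.4 and 27.4 CPM, and AKR1C3 at 1.09 and 1.75 and 5.90 and 3.53 CPM. The members best known for this response otherwise were not called: HMOX1 was at 0.543 and 1.10 CPM on plates and 2.52 and 1.56 CPM on the film (adjusted p = 0.398), GCLM at 17.9 and 18.3 and 30.3 and 30.1 CPM (adjusted p = 0.102) and SRXN1 at 1.30 and 1.15 and 3.32 and 1.91 CPM (adjusted p = 0.215). Without plate replicate 2, 5 of the 8 calls were kept, and without film replicates 1 and 2, 0 and 1. No member kept its call without plate replicate 1, although the median was then 0.66. NQO1, for one, had a log2 fold change of 1.79 and an adjusted p of 0.0943 in that fit.

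Neuropeptides, granins and the enzymes that process them were called higher on the film for 6 of 15 tested members (of 28) and lower for none, with a median of 0.70. VIP, the vasoactive intestinal peptide of autonomic neurons, was at 9.23 and 13.9 CPM on plates and 95.6 and 99.0 CPM on the film (3.07 ± 0.40, adjusted p = 0.000965). Galanin, GAL, rose from 64.0 and 88.5 to 383 and 386 CPM (2.33 ± 0.37, adjusted p = 0.00322), and CALCA, which encodes calcitonin and CGRP, from 0.109 and 0.499 to 3.66 and 3.59 CPM, with 2 and 10 reads on plates. For each of the 3 the film libraries differed from each other by less than the plate libraries did. The secretogranin gene SCG2 was at 312 and 676 CPM on plates and 1374 and 1385 CPM on the film (1.48 ± 0.26, adjusted p = 0.00594), and VGF, a secreted peptide precursor that BDNF induces, at 975 and 1704 and 6085 and 5035 CPM (2.05 ± 0.43, adjusted p = 0.0156). PAM, which amidates peptide ends, rose from 60.7 and 64.6 to 115 and 113 CPM (0.87 ± 0.12, adjusted p = 0.00120). In untreated cells PAM was at 120.9 and 106.1 CPM, near the film. VIP, SCG2 and PAM held, while GAL (adjusted p = 0.0757), VGF (0.209) and CALCA (0.254) lost their calls without plate replicate 1. CHGB (0.24 ± 0.21), NPY (0.70 ± 0.46) and the processing enzyme CPE (0.40 ± 0.21) were not called. VGF was also the 1 called gene of 18 tested in a list of neurotrophins, their receptors and related genes. No neurotrophin or neurotrophin receptor of that list was called. NTRK2, the receptor of the BDNF given to both groups, was at 392.1 and 570.5 CPM on plates and 345 and 464 CPM on the film (-0.25 ± 0.36, adjusted p = 0.763).

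Axon guidance ligands, secreted or membrane proteins that attract or repel growing neurites, changed in both directions: of 33 tested members (of 35), 5 were called higher and 2 lower, with a median of -0.04. SEMA3C, a secreted semaphorin, was at 12.3 and 8.19 CPM on plates and 103 and 88.6 CPM on the film (3.23 ± 0.34, adjusted p = 0.000281), and at 133 and 194 CPM in untreated cells. SEMA3D was at 0.109 and 0.0999 CPM on plates, from 2 reads in each library, and 3.61 and 3.94 CPM on the film (5.09 ± 0.71, adjusted p = 0.00156). SEMA3A rose from 1.19 and 1.85 to 6.47 and 5.73 CPM and SLIT2 from 2.71 and 2.197 to 11.6 and 14.3 CPM (2.40 ± 0.43). The 3 class 3 semaphorins were thus higher on the film, and SLIT2 with them. Its relative SLIT1 went the opposite way, at 262 and 239.6 CPM on plates and 38.2 and 40.0 CPM on the film (-2.68 ± 0.23, adjusted p = 0.000107), as did SEMA6A, a transmembrane semaphorin, at 35.0 and 20.97 and 7.21 and 5.38 CPM (-2.15 ± 0.26, adjusted p = 0.000572). SLIT1, SEMA3C, SEMA6A and SEMA3D held. SLIT2 (adjusted p = 0.0757), SEMA3A (0.352) and the netrin NTNG1 (0.327) did not keep their calls without plate replicate 1. NTNG1 was at 0.217 and 0.300 CPM on plates and 2.12 and 1.16 CPM on the film.

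Of 29 tested guidance receptors (of 35), 1 was called higher and 2 lower, or 10.3% beside 4.63% of all genes. NRP2, the neuropilin that binds several class 3 semaphorins, was at 5.75 and 6.19 CPM on plates and 0.573 and 0.868 CPM on the film (-3.04 ± 0.36, adjusted p = 0.000550). RTN4RL1, a receptor of the Nogo receptor family, was at 5.54 and 5.79 and 0.344 and 0.232 CPM (-4.27 ± 0.50, adjusted p = 0.000481), with 6 and 4 reads on the film. Both held, and the plate libraries of each lay close together. Untreated cells had NRP2 at 6.27 and 3.87 CPM, near the plates, and RTN4RL1 at 0.355 and 0.787 CPM, near the film. PLXNA2, a plexin that signals for semaphorins, rose from 174 and 278 to 409 and 461 CPM (adjusted p = 0.0196, and 0.230 without plate replicate 1). The Slit receptors were not called, ROBO1 at 0.10 ± 0.17 and ROBO2 at -0.63 ± 0.40.

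Genes of the neurite cytoskeleton gave a median of 0.07 over 31 tested members, with 3 called higher and none lower. These calls are 9.68% of the list, beside 4.63% of all genes. GAP43, a protein of growth cones, was at 130.3 and 147 CPM on plates and 351 and 311 CPM on the film (1.26 ± 0.24, adjusted p = 0.00965), the microtubule protein MAP1A at 124 and 228 and 364 and 369.6 CPM (1.06 ± 0.22) and BASP1 at 113 and 159 and 205 and 225 CPM (0.66 ± 0.17). STMN2, a marker of growing neurites, was at 2100.0 and 2119 and 2012 and 2088 CPM (-0.04 ± 0.16), and DCX, which binds microtubules in young neurons, at 780.5 and 938 and 449.5 and 555 CPM (-0.77 ± 0.22, adjusted p = 0.0633); neither was called. Of 34 tested genes of synaptic vesicles and active zones, 5 were called higher (14.7%) and none lower, with a median of 0.31. They included SYT4, a synaptotagmin of dense-core vesicles, at 256 and 334 CPM on plates and 696 and 742 CPM on the film (1.29 ± 0.28), and SYN2, a synapsin, at 42.3 and 55.0 and 80.9 and 77.9 CPM (0.71 ± 0.16), with SV2A, CPLX2 and NRXN3. No gene of these lists kept its call without plate replicate 1, where GAP43 had a log2 fold change of 1.17 (adjusted p = 0.134) and SYT4 of 1.11 (adjusted p = 0.224).

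Channel and receptor genes changed in both directions, with 4.35% of sodium and calcium channel genes called, 13.04% of potassium channel genes and 11.5% of neurotransmitter receptors, beside 4.63% of all genes. SCN7A, a sodium channel that senses sodium levels, was the 1 called higher of 23 tested sodium and calcium channel genes, at 2.33 and 5.69 CPM on plates and 27.0 and 25.5 CPM on the film (2.70 ± 0.45, adjusted p = 0.00461). KCNQ5, a potassium channel of the M-current, fell from 15.4 and 5.69 to 1.66 and 1.33 CPM (-2.81 ± 0.47, adjusted p = 0.00461). Of 23 tested potassium channel genes 1 was called higher (KCNK1) and 2 lower (KCNQ5 and KCNG1). Glutamate receptor subunits were split: GRIN1, the obligatory NMDA receptor subunit, fell from 85.8 and 54.2 to 28.0 and 26.0 CPM (-1.37 ± 0.23, adjusted p = 0.00394), and the AMPA receptor subunit GRIA3 rose from 3.64 and 3.15 to 10.6 and 6.66 CPM (1.35 ± 0.29, adjusted p = 0.0181). With the muscarinic receptor CHRM3, called lower, they were the called members of 26 tested. Without plate replicate 1 none of these kept its call, with an adjusted p of 0.0853 for SCN7A, 0.0757 for KCNQ5, 0.0750 for GRIN1 and 0.124 for GRIA3.

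Among 31 tested laminin and integrin genes (of 37), 3 were called higher and 1 lower, or 12.9% beside 4.63% of all genes. ITGA4, the α4 integrin subunit that binds fibronectin and VCAM1, was at 1.47 and 1.15 CPM on plates and 8.87 and 8.57 CPM on the film (2.73 ± 0.40, adjusted p = 0.00202), and at 15.7 and 8.65 CPM in untreated cells. The call of ITGA4 held. ITGB1, the β1 subunit with which α4 pairs, rose from 428 and 501 to 760.0 and 819 CPM (0.77 ± 0.14, adjusted p = 0.00667, and 0.0989 without plate replicate 1). The laminin γ1 chain LAMC1 rose from 122 and 165 to 243 and 257 CPM (adjusted p = 0.0176, and 0.229 without plate replicate 1). ITGB5, a subunit of a vitronectin receptor, was at 9.99 and 7.84 CPM on plates and 0.973 and 0.174 CPM on the film, from 17 and 3 reads (-3.94 ± 0.64, adjusted p = 0.00386). The film libraries were both far below the plates, though unlike each other, and ITGB5 lost its call only in the fit without film replicate 2 (adjusted p = 0.0538). ITGA6, a laminin-binding subunit, was at 2.01 and 1.498 and 1.77 and 1.39 CPM and was not called.

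Focal adhesion and actin regulators were called higher for 6 of 39 tested members (of 42) and lower for 1, with a median of 0.22. FERMT2 (kindlin-2), which activates integrins, was at 86.2 and 105 CPM on plates and 174 and 187 CPM on the film (0.92 ± 0.13, adjusted p = 0.00182), and thymosin β4, TMSB4X, which holds actin monomers, at 79.4 and 125 and 249 and 263 CPM (1.32 ± 0.20, adjusted p = 0.00268). These 2 held. VASP, an actin polymerase helper, rose from 39.4 and 49.0 to 83.1 and 69.5 CPM, while TLN2 (talin 2) fell from 93.6 and 84.2 to 42.8 and 49.5 CPM (-0.95 ± 0.17, adjusted p = 0.00695). The adjusted p without plate replicate 1 was 0.335 for VASP and 0.0909 for TLN2. Among 11 tested cadherins (of 24), CDH11 rose from 83.3 and 132 to 410.3 and 427 CPM and CDH2 (N-cadherin) from 312 and 378 to 553 and 504 CPM, and CDH24 fell from 53.8 and 41.5 to 22.4 and 18.8 CPM (-1.21 ± 0.18, adjusted p = 0.00233). CDH11 and CDH24 held and CDH2 did not (adjusted p = 0.296 without plate replicate 1). YAP and TEAD targets, often read as a sign of a stiff substrate, were called higher for 2 of 24 tested members (DOCK5 and NT5E) and lower for 1 (FJX1), with a median of 0.07. These calls are 12.5% of the list, beside 4.63% of all genes.

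Of 27 tested matrix glycoproteins and proteoglycans (of 41), 3 were called higher and 1 lower. The proteoglycan LUM (lumican) was at 1.85 and 3.00 CPM on plates and 28.5 and 25.4 CPM on the film, galectin-1 (LGALS1) at 42.1 and 76.6 and 238 and 214 CPM (1.93 ± 0.30, adjusted p = 0.00268) and the laminin-binding protein NID1 at 23.3 and 30.4 and 93.2 and 70.6 CPM (1.61 ± 0.31, adjusted p = 0.00965). SPOCK1 (testican-1) had the reverse pattern, with 188 and 93.4 CPM on plates and 14.1 and 11.98 CPM on the film (-3.43 ± 0.60, adjusted p = 0.00622). LUM held, and without plate replicate 1 the adjusted p was 0.0556 for LGALS1, 0.157 for NID1 and 0.0757 for SPOCK1. LUM is also a fibroblast marker, and the 11 tested fibroblast markers summed to 642 and 764.5 CPM on plates and 871.5 and 786 CPM on the film, with 1 called higher and 1 lower; their part in the result was not tested. Of 19 tested collagen genes 1 was called (5.26%, near the 4.63% of all genes). That gene, COL6A3, rose from 0.326 and 0.799 to 2.35 and 4.63 CPM (2.60 ± 0.55, adjusted p = 0.0169) and lost its call without plate replicate 1. Proteases and their inhibitors had 4 called higher and 6 lower of 27 tested. ADAM12, a membrane metalloprotease, rose from 104 and 93.2 to 225 and 237 CPM (1.23 ± 0.20) and the inhibitor TIMP1 from 15.4 and 16.6 to 36.6 and 32.2 CPM (1.10 ± 0.21). MMP15, a membrane-bound matrix metalloprotease, fell from 128 and 169 to 48.2 and 51.5 CPM (-1.57 ± 0.19, adjusted p = 0.000680) and held, and ADAMTS1, which cuts proteoglycans, fell from 129 and 78.4 to 41.8 and 41.8 CPM (-1.31 ± 0.21). MMP15 alone of the 10 kept its call without plate replicate 1.

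Transcription factors and kinases that define the adrenergic state of neuroblastoma cells were called lower on the film for 9 of 23 tested members (of 24) and higher for 1, with a median of -0.71. MYCN, the gene amplified in many neuroblastomas though not in this line, was at 9.99 and 6.94 CPM on plates and 2.00 and 2.43 CPM on the film (-1.93 ± 0.36, adjusted p = 0.00805). INSM2, a zinc-finger factor of neuroendocrine cells, fell from 96.6 and 71.3 to 25.5 and 25.9 CPM (-1.71 ± 0.20, adjusted p = 0.000554), and HAND1 from 94.0 and 98.7 to 45.8 and 43.9 CPM (-1.10 ± 0.23). ALK, a receptor kinase mutated in this disease, fell from 461 and 496 to 223 and 259.8 CPM, TFAP2B from 760.4 and 539 to 326 and 328 CPM and SOX11 from 278 and 244 to 133 and 145 CPM, with log2 fold changes of -0.99, -0.99 and -0.91. EYA1, SIX3 and DBH, the enzyme that makes noradrenaline, were also called lower, DBH at 1058 and 905 CPM on plates and 487 and 505 CPM on the film (adjusted p = 0.0476). TBX2 was the 1 called higher (1.44 ± 0.35, adjusted p = 0.0308). Among other factors of the lineage PHOX2A differed by 0.21 ± 0.17, HAND2 by -0.02 ± 0.16 and GATA3 by -0.41 ± 0.15, none of them called. Without plate replicate 1 the median was -0.48 and INSM2 alone kept its call, as it did without either film library, while MYCN had a log2 fold change of -1.65 (adjusted p = 0.104) and ALK of -1.04 (adjusted p = 0.0757). Mesenchymal neuroblastoma markers, the counterpart of this state, had 3 called higher and 2 lower of 19 tested, and summed to 577 and 596.5 CPM on plates and 671 and 639.5 CPM on the film.

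Of 36 tested receptor tyrosine kinases and their ligands (of 51), 3 were called higher and 5 lower, and KIT and its ligand moved in opposite directions. KIT was at 14.2 and 4.84 CPM on plates and 0.458 and 0.521 CPM on the film (-4.26 ± 0.60, adjusted p = 0.00171), and its ligand KITLG at 16.1 and 23.9 and 52.7 and 48.0 CPM (1.33 ± 0.22, adjusted p = 0.00371). PDGFRA was at 99.6 and 55.9 CPM on plates and 15.7 and 20.4 CPM on the film (-2.11 ± 0.37, adjusted p = 0.00622). PDGFD, which signals mainly through the other PDGF receptor, was at 4.18 and 7.99 and 31.9 and 29.5 CPM (2.33 ± 0.30, adjusted p = 0.000965). As in every called gene, the groups did not overlap in these 4. KIT and PDGFD held, while KITLG and PDGFRA lost their calls without plate replicate 1. NRG1 was called higher, and MET, ALK and INSR lower. Among 14 tested genes of catecholamine handling MAOB, a monoamine oxidase of mitochondria, rose from 35.7 and 52.6 to 126 and 132 CPM (1.54 ± 0.21, adjusted p = 0.00156) and held. TH, the first enzyme of the pathway, was at 0.597 and 0.849 CPM on plates and 2.46 and 1.10 CPM on the film (adjusted p = 0.577).

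Ribosomal protein genes were called lower on the film for 13 of 45 tested genes of the large subunit and 8 of 29 of the small subunit, and none was called higher. The medians were -0.68 and -0.63. RPL3, of the large subunit, was at 1294 and 955 CPM on plates and 680.4 and 617 CPM on the film (-0.79 ± 0.18, adjusted p = 0.0223), and RPS3, of the small subunit, at 1229 and 892 and 609.5 and 519 CPM (-0.91 ± 0.22, adjusted p = 0.0311). Elongation factor 2, EEF2, fell from 5309 and 4636 to 2728 and 2382 CPM (-0.96 ± 0.22, adjusted p = 0.0263) and EEF1A1 from 9698 and 7721 to 5416 and 5100.0 CPM, 2 of 5 called lower among 14 tested translation factors. In all 4 genes plate replicate 1 was the highest of the 4 libraries and the film libraries were the lowest. The size depended on the plate library: the median log2 ratio over the large subunit was -0.90 against plate replicate 1 and -0.40 against plate replicate 2. None of the 26 calls in these 3 lists was kept without plate replicate 1 or without either film library, and without plate replicate 2 there were 30 lower calls in the large and 20 in the small subunit. Ribosomal protein genes have many near-identical copies, and reads placed at more than 1 position were not counted to a gene, so their values are uncertain.

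Plate replicate 1 also stood apart in genes of division. Of 27 tested genes of DNA replication 4 were called lower and none higher, with a median of -0.70 (-1.05 against plate replicate 1 and -0.31 against plate replicate 2). The helicase subunit MCM7 was at 605 and 423 CPM on plates and 244 and 247 CPM on the film (-1.06 ± 0.21, adjusted p = 0.0109), and the licensing factor CDT1 at 97.8 and 50.1 and 34.2 and 25.2 CPM (-1.31 ± 0.28, adjusted p = 0.0160). MCM2 and MCM5 were the others, and none of the 4 kept its call without plate replicate 1. No gene of mitosis was called among 27 tested. Their median was -0.56, made up of -0.91 against plate replicate 1 and 0.01 against plate replicate 2, and their summed level was 1633 and 886.5 CPM on plates and 829 and 893 CPM on the film. The film was therefore at the level of plate replicate 2 in these genes. MKI67, the proliferation marker, was at 171 and 104 CPM on plates and 73.3 and 106 CPM on the film, with overlapping groups. CDKN1A (p21), which arrests the cycle, rose from 69.8 and 106 to 231 and 215 CPM (1.34 ± 0.28, adjusted p = 0.0152) and CDK6, which drives it through G1, fell from 222 and 159 to 90.7 and 108 CPM (-0.94 ± 0.17, adjusted p = 0.00629). In the fit without plate replicate 1 the adjusted p was 0.213 for CDKN1A and 0.103 for CDK6.

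The 2 plate libraries also differed in genes that retinoic acid induces. None of 20 tested members of that list was called. CYP26B1, which breaks retinoic acid down, was at 212 and 1417 CPM on plates and 1230.0 and 1415 CPM on the film, and CRABP2, which carries it to its receptor, at 731 and 1705 and 1507 and 1565 CPM. For both genes plate replicate 1 was low and plate replicate 2 lay above both film libraries, for CYP26B1 only just. CYP26A1 was at 2.71 and 21.1 CPM on plates and 91.0 and 51.7 CPM on the film (2.57 ± 0.78, adjusted p = 0.0788). The median of the list was 0.67 against plate replicate 1 and 0.06 against plate replicate 2. RET, the GDNF receptor that retinoic acid induces in this line, followed the same order, at 1332 and 3280.0 CPM on plates and 2793 and 3231 CPM on the film. Transcripts encoded in mitochondria had a median of -0.44 over 13 genes with none called, -0.79 against plate replicate 1 and 0.03 against plate replicate 2. Whether the state of plate replicate 1 accounts for calls elsewhere was not tested beyond the fits without it.

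**Figure D4:**
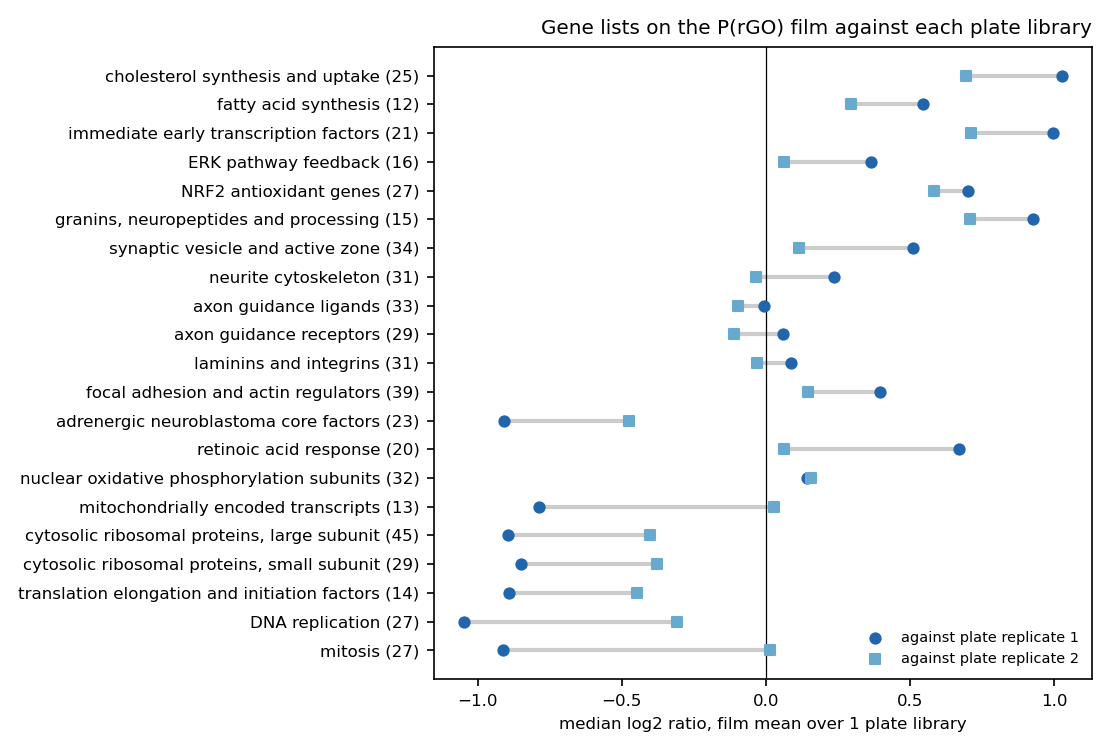
Median log2 ratio of the mean of both film libraries over a single plate library (horizontal axis) for 21 gene lists, with the number of genes tested in brackets; circles are against plate replicate 1 and squares against plate replicate 2. The cholesterol list lies at 1.03 and 0.69, the mitosis list at -0.91 and 0.01 and the retinoic acid list at 0.67 and 0.06.

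The remaining lists ran from 0 calls to 15.4% of the genes tested (WNT signalling), beside 4.63% over all genes. Nuclear subunits of oxidative phosphorylation had 4 called higher of 32 (NDUFA1, COX6C, NDUFA4 and COX6A1), with log2 fold changes of at most 0.70 (COX6A1) and none kept without plate replicate 1. Heat shock genes had 1 of 12, BAG3, a co-chaperone, which rose from 1.74 and 2.45 to 10.7 and 7.81 CPM (2.13 ± 0.46, adjusted p = 0.0178, and 0.214 without plate replicate 1). Among 21 proneural and Notch genes ID4, an inhibitor of differentiation factors, rose from 9.83 and 7.44 to 25.6 and 27.1 CPM and held, NOTCH2 rose from 18.6 and 26.3 to 40.4 and 48.8 CPM, and NEUROG2, a proneural factor, fell from 16.9 and 11.1 to 1.83 and 4.22 CPM (-2.21 ± 0.48, adjusted p = 0.0195). Of 26 WNT genes 4 were called lower and none higher, among them the receptor FZD7, which fell from 97.3 and 104 to 50.0 and 44.4 CPM (-1.09 ± 0.18, adjusted p = 0.00461), and NOTUM, which inactivates WNT ligands (-2.22 ± 0.46). Of 23 hypoxia-inducible genes EPAS1 alone was called, and VEGFA (0.61 ± 0.31) and HIF1A (0.28 ± 0.15) were not. Of 27 genes of p53 and apoptosis 2 were called higher and 1 lower, of 32 of lysosome and autophagy 1 and 1, of 18 nutrient transporters 2 and 0, and of 7 GDNF family receptors 0 and 1. None was called among 18 genes of glycolysis, 23 of the unfolded protein response, 10 of metal handling, 16 of NF-kappaB and cytokines, 13 interferon-stimulated genes, 9 of sterol efflux and 12 HOX genes. Their smallest adjusted p-values were 0.0555 for HK1, 0.0812 for XBP1, 0.391 for SLC30A1, 0.0719 for NFKBIA, 0.101 for IFI44, 0.0614 for NPC2 and 0.0534 for HOXD10.

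The last question was where the P(rGO) film differed from the other unstimulated films. No gene was called against PEDOT:PSS, against ITO or against the mean of both in edgeR's quasi-likelihood test over 18081 genes, nor in DESeq2, and 243, 299 and 210 genes had an unadjusted p under 0.05 (1.34%, 1.65% and 1.16%). Each share is below the fraction of 0.05 that arises when nothing differs, so the test was conservative here. Its spread came from all 16 libraries. The coefficient of variation was 36.2% in untreated cells, against 7.51% (PEDOT:PSS), 9.1% (P(rGO)) and 11.8% (ITO) for the unstimulated films. Without the untreated libraries each comparison still had 0 calls. Having no calls does not show that these films were alike. These comparisons use the same P(rGO) libraries as the comparison with plates. The smallest unadjusted p-values belonged to DRD5 against PEDOT:PSS, CCL2 against ITO and ENC1 against the mean of both films, all with an adjusted p of 1.0. ENC1, an actin-binding protein of neurons, was at 26.5 and 38.2 CPM on plates and 141 and 196 CPM on P(rGO), and its log2 fold change was 2.38 ± 0.36 against plates (adjusted p = 0.00248) and 1.27 ± 0.28 against the other films. DRD5, a dopamine receptor, was at 4.13 and 4.54 CPM on plates and 0.286 and 0.232 CPM on P(rGO), from 5 and 4 reads, with -4.03 ± 0.50 against plates (adjusted p = 0.000965) and -2.15 ± 0.54 against PEDOT:PSS. SLIT1 was -0.80 ± 0.22 against PEDOT:PSS, GAL 1.06 ± 0.29 and SLIT2 1.16 ± 0.33 against the mean of both films, so their differences between films were smaller than those from plates.

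Genes described above can be read over all 8 groups in that light. INHBA had its 2 highest levels of the 16 libraries on unstimulated P(rGO), 119 and 132 CPM, and was at 46.2 and 28.5 CPM on the stimulated P(rGO) film. SPRY2 was at 48.5 and 39.8 CPM and VIP at 50.5 and 38.2 CPM there, below the unstimulated film in both. The differences between stimulated and unstimulated P(rGO) were not tested here. Between unstimulated films, INHBA on P(rGO) differed by 0.70 ± 0.38 from PEDOT:PSS and by 1.07 ± 0.38 from ITO, and it was called in neither comparison. For EPAS1 the 12 film libraries ran from 3.67 to 10.8 CPM and for NRP2 from 0.573 to 1.502 CPM, all below the 2 plate libraries of differentiated cells. For EGR1 they ran from 134 to 465 CPM and for CDH11 from 254 to 439 CPM, all above those plates.

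**Figure D5:**
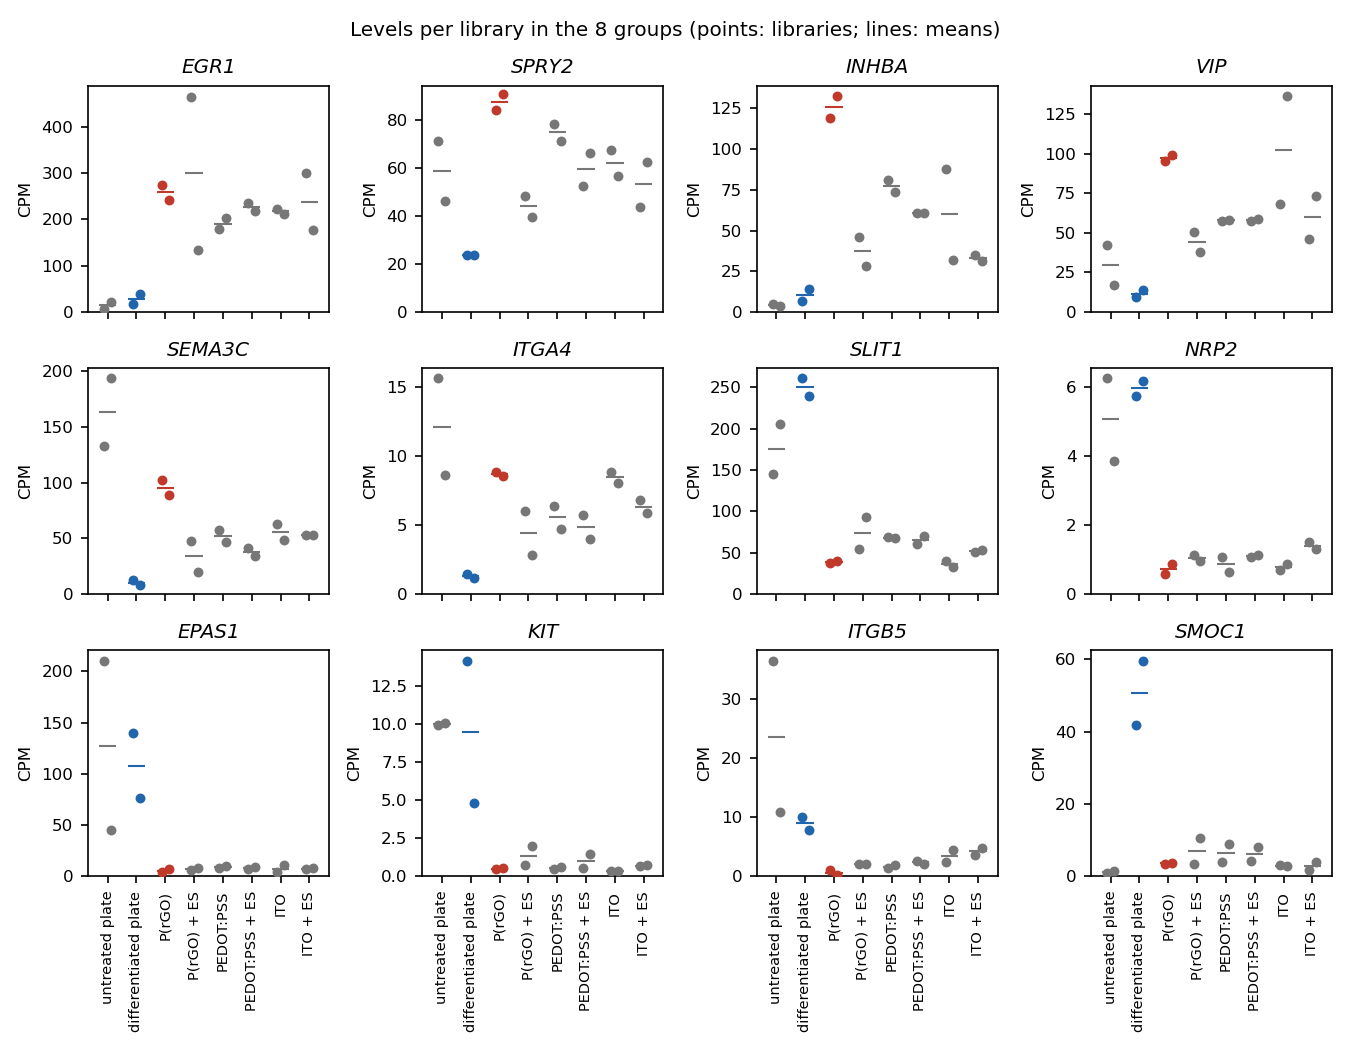
Level (CPM, linear axes from 0) of 12 genes in each of the 16 libraries, with groups along the horizontal axis (ES, electrical stimulation); points are libraries, lines group means, blue the differentiated plates and red the unstimulated P(rGO) film. NRP2, EPAS1 and KIT are lower in every film library than in both differentiated plate libraries, and EGR1, ITGA4 and SEMA3C are higher.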

How the data were processed

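Per the labels' protocols, poly(A) RNA was selected and libraries kept the strand. The deposited values are raw counts per gene and library, laid out as HTSeq writes them, and STAR, HTSeq and the builds GRCh38.p13 and hg38 are named in the submitters' processing notes. Versions and the counting's strand setting are not given in the sources used here: antisense and overlapping genes may share reads. Symbols were matched for 62639 of 69222 gene IDs, and coordinates come from GENCODE 29 on GRCh38. Reads with no gene stand in 5 summary rows, which were left out of library sizes.

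Genes were kept by edgeR 4.0.16's expression filter over 8 groups (R 4.3.3), with TMM scaling (trimmed mean of M values). A robust quasi-likelihood model with 1 mean per group was fitted over all 16 libraries, which leaves 8 residual degrees of freedom. A call required an adjusted p (Benjamini-Hochberg, over 18081 genes) no higher than 0.05. Values after ± are standard errors, each the size of the log2 fold change over the square root of its F statistic. On simulated counts for 17854 genes with 100 changed at each size, 74% of 2-fold and 98% of 4-fold changes were recovered, and 10 of 182 calls were false. The changed genes were all above 5 CPM, and the counts were drawn with the spreads that the fit itself estimated. Recovery was not measured for genes with lower levels. Of the 838 called genes, 721 had a mean of at least 5 CPM in either group.

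The genes named are the 12 largest rises and falls at 5 CPM or more and called or leading members of 56 lists, 1105 of whose genes were tested. Some of these genes are not reported here. The comparison, its lists and rules were chosen with earlier results of these data known. Motifs, 8 in all, were searched in 250 bases before RefSeq starts. Alternatives were other scaling (relative log expression), no filter, DESeq2 1.42.0, fewer groups in the fit, a replicate block and leaving out single libraries.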

Additional observations from a re-analysis of the deposited data

Results flagged for a closer look

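Reads that were not aligned, a summary row that enters no comparison of genes, took a larger share of both film libraries than of both plate libraries. The share was 11.7% and 13.6% on the P(rGO) film (mean 12.7%) and 11.4% and 9.09% on differentiated plates (mean 10.3%). The gap between film replicate 1 and plate replicate 1 is small beside the gap between the plate libraries, and the difference was not tested. Reads in no gene (7.28% and 7.80% on the film, 7.88% and 7.75% on plates) overlapped between the groups.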

How the results depend on the processing

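The 838 calls of the film against plates became 1463 with DESeq2, 1625 with no low-count filter and 2183 without the untreated libraries, of which 811, 754 and 836 were among the 838. Relative log expression scaling gave 824 and the fit of only the groups compared gave 970. Leaving out 1 library of the 2 groups gave 100 to 1023. Against PEDOT:PSS, ITO and the mean of both films, 0 calls became 16, 48 and 19 with no filter. With only the groups compared they became 1 against ITO and 1 against the mean, and leaving out 1 library gave 0 to 9 against ITO. The cause of these moves was not tested, except that the filter and the libraries fitted change how many genes and samples enter.

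In the library names all replicates 1 carry one prefix and all replicates 2 another; the labels do not say what it marks, and a shared batch was not tested beyond the block. The deviations of same-numbered replicates correlated across genes at 0.155 between plates and P(rGO) film, from -0.194 to 0.331 between plates and any film group, and from 0.0188 to 0.581 between film groups. With the replicate block the count was 938, and with the block in a fit of only the groups compared, an alternative chosen after seeing the data, it was 2321. No named gene that was called in the main fit or in another setting changed direction in that setting. Changes of sign in genes called in neither were not counted. The 1 tested leukocyte marker, for example, had a log2 fold change of -0.46 with all libraries and 0.06 without plate replicate 2. A value was available for 147 of 150 named genes in DESeq2, 148 in each fit of only the groups compared and all in the others. Of 150 named genes, 63 stayed on the same side of the threshold without plate replicate 1 and 134 without plate replicate 2, 81 and 82 without film replicates 1 and 2, and at least 132 in each other setting. The number of libraries, 2 a group, limits precision, and so does depth for genes with a few reads on one side, such as EGR2, whose folds rest on those reads.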
